A study of Mus musculus with 21 samples.

Results

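Mammary tumours in the front glands of the mouse were compared with tumours in the rear glands. The titles of the 21 tumours each end in a digit and an L or R, and the digit was taken as the gland. The labels do not say so. The 11 tumours with digit 1 (2 tumours) or 3 (9 tumours) are called front and the 10 with digit 4 (5 tumours) or 5 (5 tumours) are called rear, which places all 21 of the 21 tumours in the comparison. Every tumour came from a WAP-Cre/PIK3CA-H1047R transgenic mouse, in which the promoter of a milk protein gene drives Cre recombinase, so the mutant PI3K-alpha subunit is switched on in the cells that use this promoter. The mice received DMSO (the vehicle group) or BYL719, an inhibitor of PI3K-alpha, and the labels divide the BYL719 tumours into relapse and stable. Front tumours numbered 2 of 7 in the vehicle group, 4 of 7 in relapse and 5 of 7 in stable, and the treatment group was therefore a covariate in the test. Ages are not in the labels used here. Each title carries a number code as well, which the labels leave unexplained. It takes 12 values, 7 of them shared by more than 1 tumour, so p-values measure only the spread between these tumours, some of which may share an animal.

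Messenger RNA was counted per gene, with 13337848 to 24873844 counts per tumour (16840268 to 24648463 in front and 13337848 to 24873844 in rear tumours). Levels are given as CPM, counts scaled to the library total after adjustment by the trimmed mean of M-values (TMM). Of 24028 genes in the table, 15792 passed the filter on low counts and were tested with the quasi-likelihood F test in edgeR, whose p-values were adjusted by Benjamini and Hochberg's method over all of them. A gene is called at an adjusted p under 0.05, and log2 fold changes are front minus rear, given ± the standard error. The luminal keratins Krt8 and Krt18 were present in every tumour, at least at 121 and 226 CPM. Vehicle 2, 6 and 7, which stand apart in their smooth muscle genes, are all rear tumours. Values without them stand beside some results, not beside each one that they move.

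Mouse mammary glands lie in pairs along the milk line, the front ones over the chest and the rear ones over the belly and groin. HOX genes encode homeodomain transcription factors and stand in 4 clusters, Hoxa to Hoxd, in an order that matches where along the body axis they are used: genes of low paralog number act towards the head and genes of high number towards the tail. Cells of adult skin and connective tissue keep much of this code, so HOX levels carry a record of where a tissue came from.

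The 1 called gene was Hoxc10, of paralog group 10, and Hoxa10, of the same group, had the next lowest p. The homeoboxes of these genes, the 180 bases that encode the DNA-binding homeodomain, are shown because the 2 are alike in sequence while reads were only 50 bases long. They were read from the GENCODE M21 transcripts on GRCm38, from 5′ to 3′ on the coding strand, and capitals mark the bases that differ between the 2 genes. The Hoxc10 homeobox lies at chr15:102970848-102971027 on the plus strand in exon 2 of 2, and the Hoxa10 homeobox at chr6:52232554-52232733 on the minus strand in exon 2 of 2.
Hoxc10: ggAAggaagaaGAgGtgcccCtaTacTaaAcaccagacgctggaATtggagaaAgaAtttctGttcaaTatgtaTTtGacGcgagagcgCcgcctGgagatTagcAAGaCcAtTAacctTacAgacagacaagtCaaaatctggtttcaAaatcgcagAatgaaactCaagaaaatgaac
Hoxa10: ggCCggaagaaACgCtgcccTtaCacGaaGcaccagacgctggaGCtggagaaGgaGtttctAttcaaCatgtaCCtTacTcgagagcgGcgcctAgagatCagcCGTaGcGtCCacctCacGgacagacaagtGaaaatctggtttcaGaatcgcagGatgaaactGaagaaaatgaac

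The Hoxc10 and Hoxa10 homeoboxes differ at 35 of the 180 bases (80.6% identical). Over whole protein-coding transcripts, the longest run of bases that Hoxc10 shares with any other HOX gene is 23, with Hoxb9, and for Hoxa10 it is 21, with Hoxb2, both shorter than a read. Hoxc9 shares 50 bases with Hoxb9, the length of a whole read, so single reads of that stretch could belong to either. A noncoding Hoxc5 transcript of the annotation also shares 168 bases with Hoxc10, and Hoxa10 and Hoxc9 each overlap a predicted gene (Gm52902 and Gm36878). The sources used here do not say how the authors' counting treated such reads.

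Only 1 gene of the 15792 tested (0.00633%) was called lower in front tumours, and 0 (0%) were called higher. That gene was Hoxc10, at chr15:102966796-102971898 in GRCm38. Its counts in the 2 tumours with digit 1 were 2 (stable 1) and 1 (stable 5). Among the 9 with digit 3 it had 1 count in vehicle 1, relapse 1, relapse 3 and relapse 5, and 0 in vehicle 4, relapse 7, stable 4, stable 6 and stable 7. No front tumour thus held more than 2 reads of this gene.

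In the rear tumours with digit 4, Hoxc10 had 43 counts in vehicle 3, 26 in vehicle 5, 15 in vehicle 7, 73 in relapse 4 and 51 in relapse 6. In those with digit 5 it had 16 in vehicle 2, 7 in vehicle 6, 129 in relapse 2, 9 in stable 2 and 19 in stable 3. Every rear tumour was above every front tumour, and Hoxc10 was the only gene tested for which this held (0.00633%). No gene had every front tumour above every rear tumour (0%).

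As CPM, Hoxc10 ranged from 0 to 0.0869 in front tumours (median 0.0457) and from 0.327 to 5.75 in rear tumours (median 1.28). It fell by 5.65 on the log2 scale from rear to front, ± 0.54 (95% interval -6.79 to -4.51; adjusted p = 3.22e-05). Pooled over tumours, 7 counts in front stood against 388 in rear, a rear to front ratio, relative to library totals, of 61.2 with an exact 95% interval of 29.4 to 153 that covers counting error only. The size of the fold change rests on these few front reads. Hoxc10 passed the filter on low counts only through rear tumours, and without the filter its log2 fold change was -5.62 with an edgeR adjusted p of 5.02e-05.

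The levels by treatment group restate this separation, since every rear tumour was above every front tumour. In vehicle tumours, Hoxc10 was at 0.327 to 2.03 CPM in rear and 0 to 0.0457 in front tumours. In relapse it was at 2.65 to 5.75 in rear and 0 to 0.0484 in front, and in stable at 0.484 to 1.37 in rear and 0 to 0.0869 in front. The ranges of the 2 positions did not meet in any of the 3 groups, which the separation over all tumours fixes in advance. Without vehicle 2, 6 and 7 the log2 fold change was -5.76 (edgeR adjusted p = 4.47e-05). Within the rear position, digit 4 tumours had a median of 2.03 CPM (0.799 to 3.64) and digit 5 tumours of 0.732 (0.327 to 5.75), ranges that overlap.

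**Figure D1:**
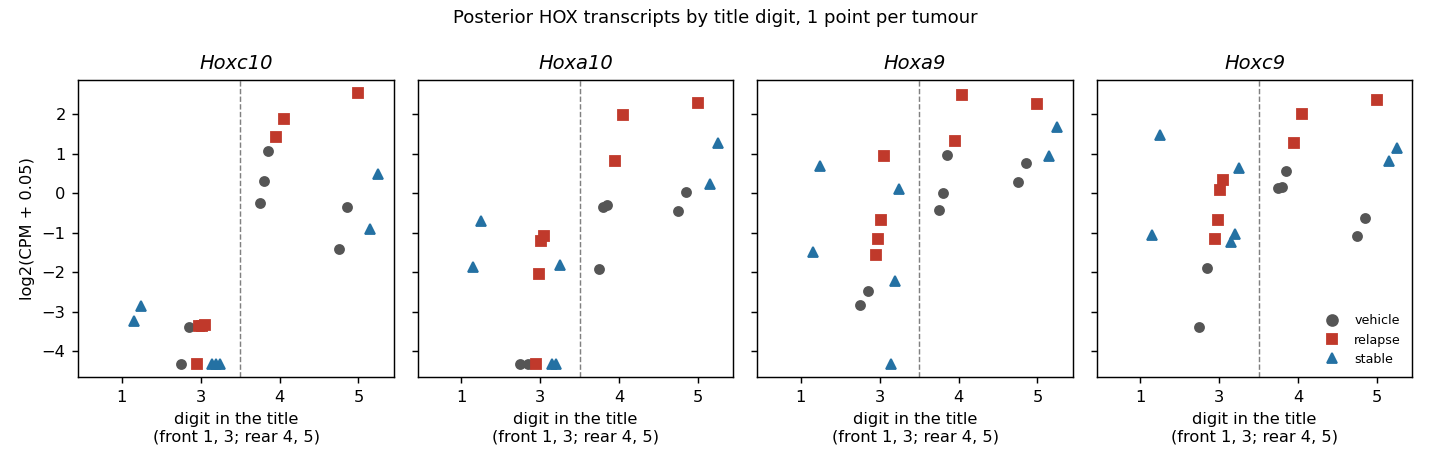
Levels of Hoxc10, Hoxa10, Hoxa9 and Hoxc9 in each of the 21 tumours as log2(CPM + 0.05), by the digit in the title, with colour and shape for the treatment group. All 10 rear tumours lie above all 11 front tumours for Hoxc10, 9 of 10 do for Hoxa10, 6 of 10 for Hoxa9 and 2 of 10 for Hoxc9.

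Hoxa10, the paralog of Hoxc10 in the Hoxa cluster (chr6:52231197-52240854), was not called by edgeR. It ranged from 0 to 0.565 CPM in front tumours (median 0.193) and from 0.213 to 4.81 in rear tumours (median 1.06). Of the 10 rear tumours, 9 were above every front tumour, and vehicle 7 (0.213 CPM) was the exception. The log2 fold change was -3.73 ± 0.62 (edgeR adjusted p = 0.0656). The rear tumours carried this gene past the filter on low counts, and without the filter it was at -3.74 (edgeR adjusted p = 0.115). Hoxa10 was called in 8 of 35 alternatives, among them the DESeq2 Wald test (adjusted p = 2.36e-06) and both limma voom fits of all tumours. Its adjusted p over the alternatives ran from 2.36e-06 to 0.999.

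Paralog group 9 differed by smaller sizes, and edgeR called none of its genes. Hoxa9 was at 0 to 1.88 CPM in front (median 0.304) and 0.692 to 5.59 in rear (median 1.89), a log2 fold change of -2.53 ± 0.54 (edgeR adjusted p = 0.312). Hoxc9 (chr15:102977032-102984444) was at 0.0457 to 2.74 in front (median 0.440) and 0.420 to 5.13 in rear (median 1.57), a log2 fold change of -1.92 ± 0.46 (adjusted p = 0.487). For both genes the groups overlapped, and the front tumour stable 5 held the highest front value of Hoxc9. Hoxd9, the paralog in the Hoxd cluster, had nearly equal medians, 0.514 CPM in front and 0.449 in rear, and a log2 fold change of -0.08 ± 0.80, which was 0.51 ± 0.53 without vehicle 2, 6 and 7. The DESeq2 Wald test and limma voom with sample quality weights called both Hoxa9 and Hoxc9, the only 2 of 35 alternatives that did. The adjusted p over the alternatives ran from 0.00153 to 0.999 for Hoxa9 and from 0.00304 to 0.999 for Hoxc9.

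The rest of the Hoxc cluster was not called. Hoxc8, the next gene after Hoxc9 towards the low numbers, ranged from 0.888 to 19.2 CPM in front (median 4.34) and from 0.778 to 16.4 in rear (median 4.41), with a log2 fold change of -0.41 ± 0.52 (edgeR adjusted p = 0.821; 95% interval -1.50 to 0.67). Hoxc6 had medians of 3.33 in front and 2.67 in rear and a log2 fold change of -0.42 ± 0.45. The values for Hoxc5 and Hoxc4 were -0.72 ± 0.48 and -0.15 ± 0.61. For these 4 genes the positions overlapped broadly, and a p that misses the threshold does not show equal levels. At the other end, Hoxc13, a gene of hair follicles and nails, was at 0.327 to 3.90 CPM in front and 0.412 to 11.2 in rear (-1.71 ± 0.51; adjusted p = 0.556).

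The HOX genes were counted by paralog group. Of the 16 genes of groups 9 to 13, 8 were tested, 1 was called and 6 had an unadjusted p under 0.05, all lower in front. Over all genes tested, 740 (4.69%) were lower in front at that unadjusted p and 575 (3.64%) higher, 1315 (8.33%) in both directions, and 48% had a log2 fold change below 0. The median log2 fold change of the 8 was -1.82, of the 6 tested genes of groups 6 to 8 it was -0.42 and of the 11 tested genes of groups 1 to 5 it was -0.17, beside 0.01 over all genes. With the title code as a fixed block these medians were -2.37, -0.80 (6 of 6 negative) and -0.59 (11 of 11 negative). The difference between paralog groups was not tested. In the fit of all tumours with treatment and position, no gene of groups 1 to 8 had an unadjusted p under 0.05. With the title code as a fixed block, Hoxa7 did (-1.87 ± 0.49, edgeR unadjusted p = 0.00390, adjusted p = 0.580). It also did with counts summed per code, group and position (-0.87 ± 0.41, edgeR unadjusted p = 0.0483, adjusted p = 0.423). Because genes of low level pass the filter where they are high, raw counts of every HOX gene are given too. Groups 1 to 5 (15 genes) had 4484 counts in front and 4523 in rear, groups 6 to 8 (8 genes) 4150 and 3945, and groups 9 to 13 (16 genes) 1029 and 3255.

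Relative to all counts, each of those 16 genes had a larger share in rear tumours, by margins from 1 read against 1 (Hoxd12) to 7 against 388 (Hoxc10). In groups 1 to 5 this was so for 6 of 15 genes, and in groups 6 to 8 for 6 of 8. Hoxc11 had 0 reads in front and 7 in rear. Hoxc12 had 0 and 5, and Hoxb13 0 and 1. A count of 0 over the front tumours allows up to 0.0134 CPM (3 counts), and the exact 95% lower limits of the rear to front ratio were 1.59 for Hoxc11 and 1.01 for Hoxc12, counting error only. Hoxd10 was high in 2 of the rear tumours that stand apart, vehicle 2 (4.67 CPM) and vehicle 6 (6.16 CPM), and its other 8 rear tumours lay between 0 and 1.22 CPM.

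**Figure D2:**
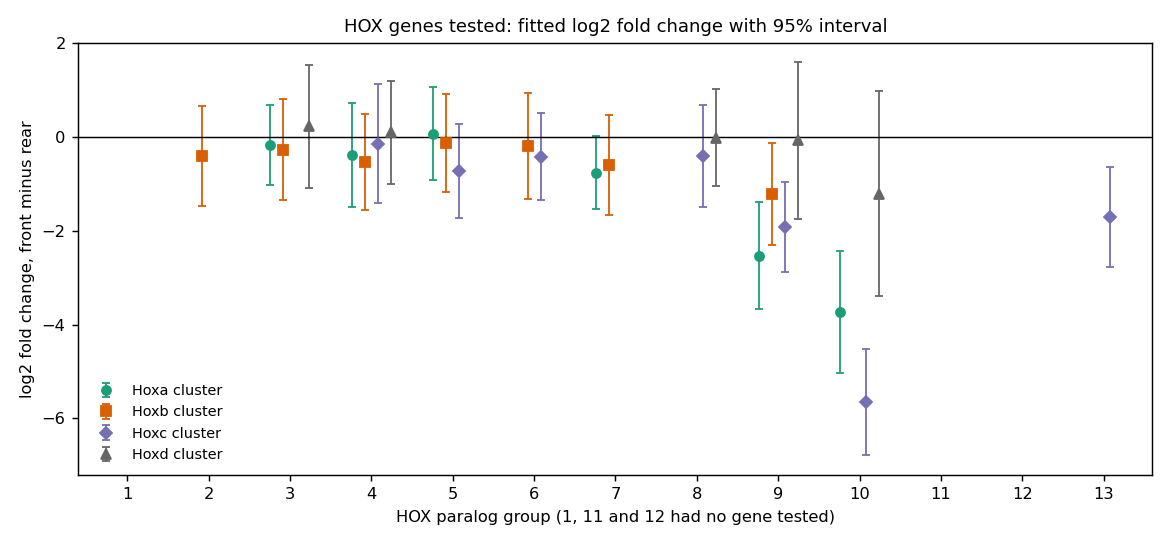
Fitted log2 fold change, front minus rear, of the 25 HOX genes tested, with 95% intervals as bars, placed by paralog group and coloured by cluster. Genes of groups 2 to 8 lie between -0.77 and 0.23, and Hoxc10 (-5.65), Hoxa10 (-3.73) and Hoxa9 (-2.53) lie lowest.

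Tumours that share a title code were also compared directly. Of the 12 codes, 4 held tumours of both positions, 9 tumours in all: vehicle 1 with vehicle 2, vehicle 4 with vehicle 3, stable 4 with stable 2 and 3, and stable 7 with relapse 6, the front tumour named first. Hoxc10 was higher in rear in all 4, at 0.0457 against 0.732 CPM, 0 against 2.03, 0 against 0.925 (the mean of 2) and 0 against 2.65, front first. For Hoxc10 this order follows from the separation over all tumours and adds no further support. Hoxa10, Hoxa9, Hoxc9 and Hoxb9 were also higher in rear in 4 of 4, as was Hoxa7 of group 7 (-0.77 ± 0.37, edgeR adjusted p = 0.599). Over all genes tested, 8.96% (1415) had rear above front in all 4 codes. The order of Hoxa10 also follows from its levels over all tumours and adds no further support. Vehicle 7, its only rear tumour not above every front tumour, is in none of these 4 codes. Hoxc8 was higher in rear in 2, higher in front in 1 and between the rear tumours in 1. In the code of stable 7 and relapse 6, position and treatment class change together. With the code as a fixed block and stable as a covariate, positions are compared within the 4 codes that hold both. The stable term also draws on relapse 5 and stable 5, which share a code and are both front. In this fit Hoxc10 had a log2 fold change of -6.15 ± 1.13, an unadjusted edgeR p of 0.000334 and an adjusted p of 0.580. No gene was called in that fit.

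**Figure D3:**
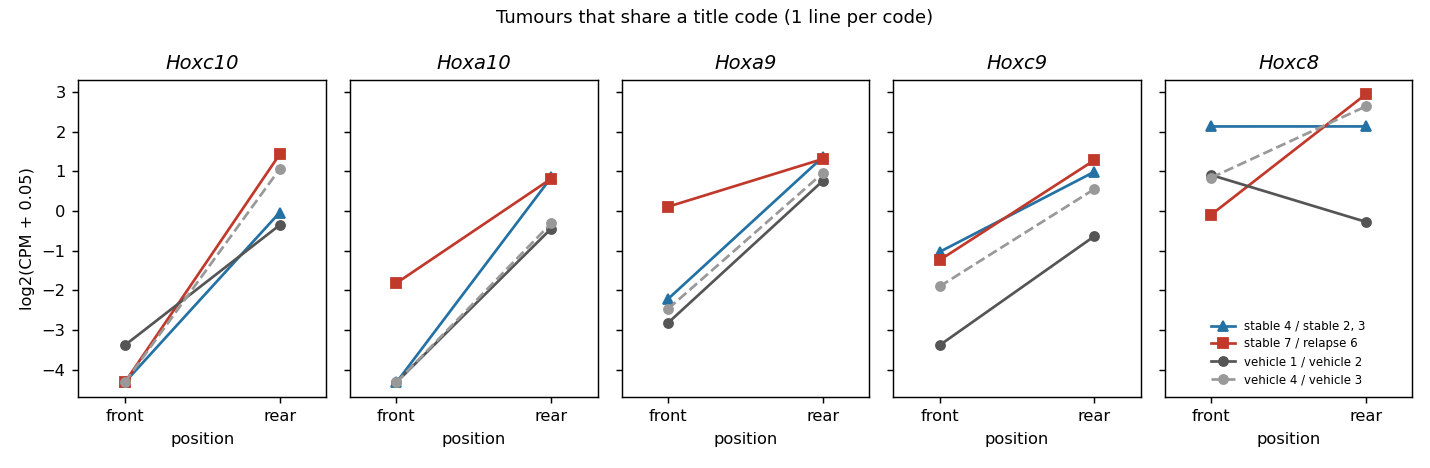
Front and rear levels, as log2(CPM + 0.05), of tumours that share a title code, 1 line for each of the 4 codes; where a code has 2 rear tumours, their mean is drawn. All 4 lines rise from front to rear for Hoxc10, Hoxa10, Hoxa9 and Hoxc9, and they do not for Hoxc8.

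No other factor of body position was called. Tbx5, which marks the forelimb level, was at 0.0457 to 1.45 CPM in front and 0 to 0.934 in rear tumours (-0.77 ± 0.57; edgeR adjusted p = 0.707). Tbx4 and Pitx1, which mark the hindlimb level, did not pass the filter and had 20 and 31 counts in front against 27 and 75 in rear. Tbx15, a regulator of trunk skin, had a log2 fold change of 0.03 ± 0.42. Of the 30 limb and body-wall factors, 19 were tested and 0 were called. Lower in front at an unadjusted p under 0.05 were 2, beside 4.69% of all genes. They were Prrx1 (-1.03 ± 0.39) and Alx4 (-1.54 ± 0.69), with edgeR adjusted p of 0.557 and 0.580. Of the 9 HOX cofactors 8 were tested and 0 were called, with a median of -0.21. The 12 long noncoding RNAs of the HOX clusters gave 0 tested genes, and Hotair, which lies in the Hoxc cluster, had 5 counts in front and 13 in rear.

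Genes of the embryonic mammary placode and bud were mostly lower in front, and none was called. Of 23 tested, 21 had a negative log2 fold change, 10 an unadjusted p under 0.05 (beside 4.69% of all genes), and the median was -0.73. Without vehicle 2, 6 and 7 the median was -0.50, and 9 of 23 were lower at that p (beside 4.17% of all genes). With the title code as a fixed block the median was -0.67, and 3 of 23 were lower at that p (beside 5.44%). Pthlh, a hormone-like signal from mammary epithelium to its mesenchyme, was at 1.18 to 4.74 CPM in front (median 2.29) and 2.59 to 5.88 in rear (median 4.49; -0.82 ± 0.24, edgeR adjusted p = 0.556). Edar, the ectodysplasin receptor, was at 3.02 to 8.52 in front and 3.62 to 52.7 in rear, the top value being relapse 2 (-1.26 ± 0.39; adjusted p = 0.556). Tbx3, needed for the placodes to form, had -0.69 ± 0.38. Fits within each treatment group filtered the genes anew. The median of the list was -1.02 within vehicle (18 genes tested), -0.73 within relapse (22) and 0.19 within stable tumours (13). These medians were not of 1 sign, and they cover different genes. The score of all 23 genes, their mean log2 CPM centred over all tumours, had a lower median in front in all 3 groups. It was -0.75 in front and 0.30 in rear in vehicle, -0.10 and 0.54 in relapse, and -0.11 and 0.19 in stable.

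Outside the HOX clusters, the genes of lowest p were not called and are given as values. Mgat5, a Golgi enzyme that adds branches to N-glycans, was at 28.0 to 50.3 CPM in front (median 37.1) and 46.9 to 74.0 in rear (median 55.1), with a log2 fold change of -0.61 ± 0.12 (edgeR adjusted p = 0.253). The positions overlapped, 7 of 10 rear tumours were above every front tumour, and the rear tumours were higher in 4 of 4 codes, as for 8.96% of all genes. Chst11, a chondroitin sulfotransferase, had -0.97 ± 0.21, Ttc39b, a tetratricopeptide repeat protein, -0.66 ± 0.14, and Pla2g4a, a cytosolic phospholipase A2, -0.74 ± 0.16 (adjusted p = 0.312 for each). In all 3, every rear tumour was above the front median. These genes were picked by low p, and this pattern was not counted over all genes.

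On the side of higher values in front, Oas2, an oligoadenylate synthetase induced by interferon, was at 9.40 to 146 CPM in front (median 28.9) and 2.97 to 24.7 in rear (median 8.92), with a log2 fold change of 2.08 ± 0.49 (edgeR adjusted p = 0.485). Every front tumour was above the rear median, a pattern that was not counted over all genes. Front was higher in 4 of 4 codes, as for 7.5% of all genes. Gvin1, a very large GTPase also induced by interferon, was at 302 to 967 CPM in front and 68.4 to 396 in rear (1.28 ± 0.28; adjusted p = 0.312). Tdrkh, a tudor domain protein of the piRNA pathway, had 0.85 ± 0.19 (adjusted p = 0.312) and Cited4, a partner of the p300 coactivator, 0.77 ± 0.18 (adjusted p = 0.394). The DESeq2 Wald test called these 4 and the 4 in the paragraph before among its 41 genes, and edgeR called none of them.

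**Figure D4:**
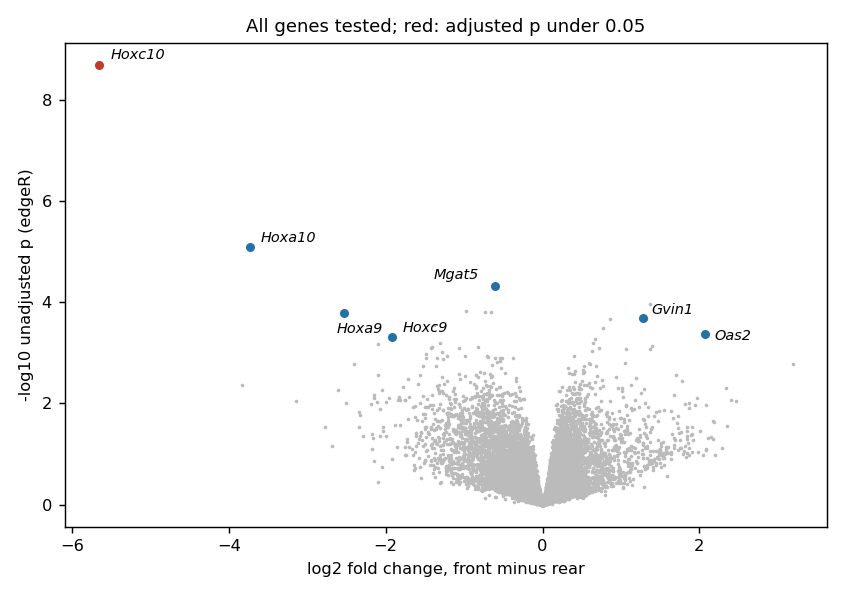
Log2 fold change, front minus rear, against -log10 of the unadjusted edgeR p for the 15792 genes tested. Hoxc10 (red) is the 1 called gene, and Hoxa10, Hoxa9, Hoxc9, Mgat5, Gvin1 and Oas2 (blue) were not called.

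The interferon response list had 14 of 14 members with a positive log2 fold change and a median of 1.28. Of these, 7 had an unadjusted p under 0.05 (beside 3.64% of all genes) and 0 were called. Rsad2, an antiviral protein, was at 4.14 to 186 CPM in front (median 13.99) and 2.18 to 11.9 in rear (median 5.51), with a log2 fold change of 1.87 ± 0.65 (edgeR adjusted p = 0.556). The top value is stable 1. Oasl2, another antiviral gene, had 1.14 ± 0.42. The median of the list was 1.79 within relapse, 2.03 within stable and -0.21 within vehicle tumours, and 1.73 without vehicle 2, 6 and 7. T and NK cell markers had a median of 0.42 (0.72 without those 3 and -1.02 with the title code as a fixed block), and Cd8a, a receptor of cytotoxic T cells, had 1.18 ± 0.40 (adjusted p = 0.556). The summed level of their 11 tested markers was 25.2 to 97.3 CPM in front and 19.2 to 93.8 in rear. The part of these cells in the interferon values was not tested. In bulk tissue, fewer cells of a type and less RNA per cell cannot be told apart.

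Milk and alveolar genes had a median of 1.11, with 11 of 12 positive and 0 called. Higher in front at an unadjusted p under 0.05 were 5 of the 12, beside 3.64% of all genes. Elf5, a transcription factor of alveolar cells, was at 162 to 468 CPM in front (median 305) and 73.7 to 325 in rear (median 180), with a log2 fold change of 0.73 ± 0.27 (edgeR adjusted p = 0.556). Xdh, which has a part in milk fat secretion, had 0.50 ± 0.19 (edgeR adjusted p = 0.557). Its 11 front tumours were all above the rear median, a pattern not counted over all genes. Within treatment groups, each filtered anew, the median of the list was 0.71 in vehicle (9 genes tested), 1.67 in relapse (12) and 0.16 in stable tumours (11). The median score of all 12 genes went the other way in stable tumours, at -0.17 in front and 0.68 in rear. It was higher in front in vehicle (0.35 against -0.93) and relapse (1.21 against -0.70). Wap, the gene whose promoter drives Cre, ranged from 0.348 to 262 CPM in front and from 0.137 to 31.8 in rear (1.54 ± 0.91; adjusted p = 0.660).

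Basal and myoepithelial markers had 14 of 14 negative values, a median of -0.83 and 0 called. At an unadjusted p under 0.05 there were 2, beside 4.69% of all genes lower in front. Those 2 were Cdh3, P-cadherin (-0.72 ± 0.22), and Trp63, a master regulator of basal epithelium (-0.78 ± 0.28; edgeR adjusted p = 0.556 for both). The summed level of the 14 markers was 344 to 1711 CPM in front and 1046 to 23925 in rear, and none was at 0 in every tumour. Cnn1, a smooth muscle calponin, was at 1.13 to 7.32 CPM in front and 2.16 to 852 in rear (-1.92 ± 1.20; adjusted p = 0.667). The median of the list was -4.06 within vehicle tumours, where vehicle 2, 6 and 7 are rear, 0.075 within stable, and -0.65 without those 3. Without them, 5 of 14 were lower in front at an unadjusted p under 0.05, beside 4.17% of all genes. Of the 15 skeletal muscle markers, 3 had an unadjusted p under 0.05, beside 3.64% of all genes higher in front. These markers had 15 of 15 positive values, a median of 1.48 and 0 called. Their summed level spanned 335 to 26539.9 CPM in front and 248 to 15349 in rear. The median was 3.10 within stable (15 genes tested) but 0.67 within relapse tumours (11 genes tested). Fibroblast markers, from cells that use HOX genes, had a median of -0.40 (12 of 16 negative, 0 called; -0.23 without vehicle 2, 6 and 7 and -1.05 with the title code as a fixed block) and a summed level of 2695 to 11673.5 CPM in front and 3145 to 13539 in rear. Their part in the HOX values was not tested.

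**Figure D5:**
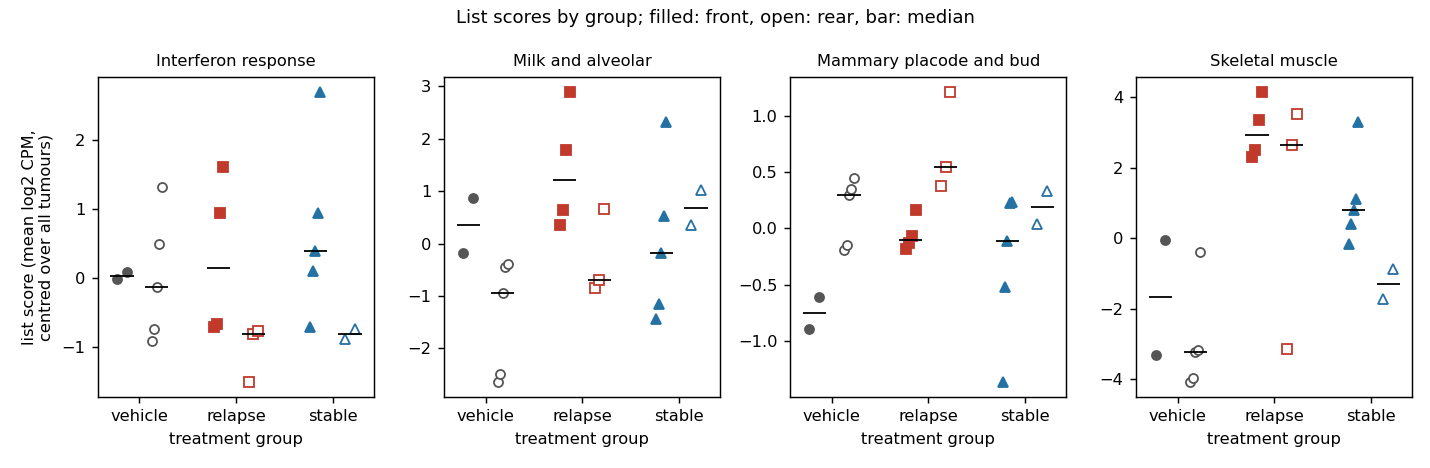
Scores of 4 gene lists per tumour, each the mean log2 CPM of the members centred over all tumours, by treatment group, with filled points for front, open points for rear and a bar at the median. For interferon response the front medians are above the rear medians in all 3 groups, while in vehicle the rear tumours span -0.91 to 1.32 around the 2 front tumours. The fitted log2 fold changes of its members within vehicle had a median of -0.21, with 10 of 14 negative. For milk and alveolar genes the front median is below the rear median in stable tumours (-0.17 against 0.68) and above it in vehicle and relapse.

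No gene of the pathway that BYL719 inhibits was called. Nf1, a brake on RAS, had medians of 274 CPM in front and 282 in rear, with a log2 fold change of -0.03 ± 0.17 (95% interval -0.39 to 0.33; edgeR adjusted p = 0.970). Of 15 PI3K and RAS pathway genes 0 were called and the median was 0.03, and of 17 feedback and FOXO target genes 0 were called. ERK output genes had a median of -0.38, with 0 of 13 called and Etv4, an ETS factor, at -1.01 ± 0.33 (adjusted p = 0.556). Mki67, a proliferation marker, had medians of 888 and 868 CPM. All 17 cell cycle genes had a positive value, with a median of 0.26 and 0 called. Without vehicle 2, 6 and 7 that median was -0.0075 and 9 of 17 were negative, and with the title code as a fixed block it was 0.83. Over all genes, 72.6% of those not called had a 95% interval that lay within 2-fold in both directions.

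Among the remaining lists no member was called. Retinoic acid enzymes and receptors, which set HOX levels in the embryo, had a median of -0.05 over 14 genes, with 0 at an unadjusted p under 0.05. White adipocyte markers were positive in 13 of 13 (median 0.52) and mast and dendritic cell markers in 9 of 9 (median 0.67), in both cases with 0 at an unadjusted p under 0.05. With the title code as a fixed block their medians were -1.55 (12 of 13 negative) and -0.63 (8 of 9 negative). Blood endothelial markers were negative in 9 of 9 (median -0.44), and 2 had an unadjusted p under 0.05, beside 4.69% of all genes. These were Cdh5, the cadherin of endothelial junctions (-0.58 ± 0.23, edgeR adjusted p = 0.565), and Kdr, a VEGF receptor (-0.55 ± 0.23, adjusted p = 0.571). Without vehicle 2, 6 and 7 the blood endothelial median was -0.15 and 6 of 9 were negative. Luminal markers had a median of 0.29, with 9 of 13 positive, 4 negative and values from -1.19 to 0.70. The claudins Cldn3 (0.64 ± 0.24) and Cldn7 (0.60 ± 0.24) had the lowest p. Macrophage markers had a median of -0.02, and cholesterol and fatty acid synthesis genes of 0.003.

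Whether the front against rear difference itself changed with treatment was tested with an interaction term. No gene was called (0 of 15792, 0%, with edgeR; lowest adjusted p = 0.287), and 1699 (10.8%) had an unadjusted p under 0.05. For Hoxc10 the interaction had an unadjusted p of 0.453. With 2 front vehicle tumours and 2 rear stable tumours the groups are small for this test.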

How the data were processed

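Polyadenylated RNA of 21 tumours was sequenced as single-end 50-base reads from stranded libraries, per the labels' protocols. The data the authors deposited are 1 table of raw counts, whole numbers for each gene. The submitters' processing notes name STAR 2.5.2a, SAMtools 1.3.1, Picard 2.9.2, edgeR and build mm10, and do not state annotation, strand setting or the handling of multi-mapping reads. Another deposited column gives gene length and was used only to describe genes. In 10202 rows an extra leading cell was skipped. Gene positions are from RefSeq (GRCm38.p6, matched for 15762 tested genes).

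The members of each group, the lists and the tests were chosen with earlier results of these data known. Counts were filtered with filterByExpr by treatment group, scaled with TMM and fitted over all 21 tumours with treatment and position in edgeR 4.0.16 (quasi-likelihood, R 4.3.3). Standard errors are the log2 fold change divided by the square root of F. List scores use log2 CPM with a prior count of 2. Lists are described by counts and medians, with no set test. Named are 18 fixed genes where tested, called genes, the 4 lowest p in a direction with fewer than 4 calls (mean log2 CPM of at least 1, predicted genes left out), and up to 2 members of lowest p in a list with no call. Hoxb9, Hoxd10, Hoxc11 to Hoxc13, Hoxd12, Hoxb13, Hoxa7, Krt8, Krt18 and Wap were added after their values were seen. The 21 tumours differed beyond sampling noise, and none was counted as a repeat. Some results that meet these rules are not reported here. Scripts were tested on simulated counts. Alternatives used DESeq2 1.42.0 and limma 3.58.1, blocks for title code or replicate number, other filters and covariates, and left-out tumours.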

Additional observations from a re-analysis of the deposited data

Results flagged for a closer look

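Among 87 named genes, the values of the 10 rear tumours were searched for 1 tumour far from the rest by the gap to its neighbour as a share of the whole range (Dixon's test). Chance flags about 1 in 20 groups, and 4 of 87 genes had such a tumour. Edar was high in relapse 2, at 5.72 log2 CPM with the next tumour at 3.38 (gap share 0.612). Mrc1, a macrophage receptor, was high in relapse 4, at 8.64 with the next at 7.32 (0.652). Cpa3, a mast cell protease, was high in vehicle 6, at 1.63 with the next at 0.05 (0.487). Erbb2, a receptor tyrosine kinase, was low in vehicle 2, at 5.70 with the next at 6.27 (0.573). None of these genes was called between front and rear by edgeR.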

How the results depend on the processing

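Hoxc10 kept its direction in all 35 alternatives and was called in 34 of them, with log2 fold changes of -6.79 to -5.06. The exception was the title code as a fixed block (-6.15, edgeR p 0.000334, adjusted p 0.580), where only 9 tumours lie in codes with both positions. In that fit 0 genes were called, and 859 were lower and 457 higher at an unadjusted p under 0.05. Leaving out 1 tumour at a time gave 1 to 3 called genes and a Hoxc10 value of -6.02 to -5.43 (adjusted p 1.27e-05 to 0.000392); without stable 6 the 3 were Hoxa10, Hoxc10 and Mgat5, and without stable 1 Hoxa10 was the second. The number called was 41 with the DESeq2 Wald test (27 lower and 14 higher in front), 8 with voom and sample quality weights, 2 with voom and the title code as a random effect, with all tumours or without vehicle 2, 6 and 7, 2 without the digit 1 tumours, and 298 with no treatment covariate (277 lower, 21 higher). Fits of vehicle, relapse or stable tumours alone called 0 each, and Hoxc10 did not pass the filter there; at an unadjusted p under 0.05, 1803 genes were lower and 990 higher in front in vehicle, 904 and 791 in relapse, and 26 and 71 in stable. The cause of these changes was not tested. Interaction calls were 0 in every alternative. The replicate numbers do not pair the tumours (5 of 21 same-numbered pairs correlated above 0.1, range -0.55 to 0.30), and with the number as a replicate block Hoxc10 was at -6.79 (adjusted p 0.00189) and 1 gene was called.

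With the title code as a fixed block, list medians moved to -2.37 (HOX groups 9 to 13), -0.60 (limb factors), 0.60 (hypoxia and glycolysis), -1.55 (white adipocyte), -0.51 (lymph node and B cell), -1.02 (T and NK cell), -1.05 (fibroblast), -0.40 (macrophage) and -0.63 (mast and dendritic cell). By less than 1 residual SD of the scores they also moved to 0.83 (cell cycle), 1.301 (keratinocyte, from -0.30), 0.87 (neutrophil, from -0.16), -0.50 (brown adipocyte, from 0.49), -0.70 (lymphatic endothelial), -0.59 (HOX groups 1 to 5) and -0.80 (groups 6 to 8). Fits within treatment groups, added after seeing the data, filtered the genes anew, so their medians can cover fewer genes. For HOX groups 1 to 5 (11 genes over all tumours) they moved to -1.74 in vehicle (3 genes) and 0.94 in stable (4 genes). For groups 6 to 8 (6 genes over all tumours) the stable median was 0.80 (2 genes). Others moved to 0.19 in stable for placode genes (13 of 23 genes) and -0.21 in vehicle for interferon. Basal genes moved to -4.06 in vehicle and 0.075 in stable, and fibroblast genes to -1.28 in vehicle and 0.44 in stable. Of 3250 alternative values of the 87 other named genes, 3215 kept their call, 35 (of 15 genes) were newly called and 89 had the opposite sign, none of them called. Depth limits Hoxc10 in front tumours, where at most 2 reads were counted.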

Other observations

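Levels of 3 genes in single tumours were picked after their values were seen. Ucp1, the heat-producing protein of brown fat, was at 181, 52.7 and 95.1 CPM in relapse 1, 5 and 7, all with digit 3, while the next tumours were stable 6 (10.4 CPM) and vehicle 3 (9.08 CPM). The summed level of the brown adipocyte markers was 452, 140 and 309 CPM in those 3 tumours and 436 CPM in the rear tumour vehicle 3. Pip, a secreted protein made in salivary and lacrimal glands, had 440 counts in stable 1, with digit 1, and at most 12 in any other tumour. The summed level of the salivary gland markers was 176 CPM in stable 1 and 198 CPM in the rear tumour vehicle 7. Stable 5, the other tumour with digit 1, held the highest Hoxc8 level, 19.2 CPM. These are single tumours, and no comparison was made from them.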
